A study of Mus musculus with 12 samples.

Results

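The 7 genes that encode inhibitors of cyclin-dependent kinases (CDKs) and the 3 genes of the retinoblastoma family were followed in the sensory epithelium of the postnatal mouse cochlea. These 10 members, out of 27754 genes in the table, were chosen by gene family and not by a limit on their values. Earlier results of these data were known when they were chosen. The inhibitors fall into the Cip/Kip genes Cdkn1a (p21), Cdkn1b (p27) and Cdkn1c (p57), and the INK4 genes Cdkn2a, Cdkn2b, Cdkn2c and Cdkn2d. The retinoblastoma family, also called the pocket proteins, comprises Rb1, Rbl1 (p107) and Rbl2 (p130). All 10 had an entry, and 9 of them passed the filter of a mean of at least 10 normalized counts and were tested, Cdkn2a being the exception.

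Cip/Kip proteins bind assembled cyclin-CDK complexes, chiefly those that drive DNA replication, whereas INK4 proteins bind CDK4 and CDK6 and keep the D cyclins off them. Both brakes preserve pocket proteins in the form that holds E2F transcription factors, which leaves the genes of DNA replication silent. In the cochlea, p27 marks the prosensory cells as they stop dividing and stays on in supporting cells (SCs), while p21, the Cdkn2d product and Rb are known to keep hair cells (HCs) from dividing again.

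The study asked how activation of Wnt signaling through stabilized β-catenin alters gene expression at a younger and an older postnatal stage. Treated pups were Sox2-CreER/+; β-catenin-flox(Exon3)/+, and untreated pups were Cre-negative littermates that carried β-catenin-flox(Exon3)/+ alone, on a mixed C57BL/6 and CD1 background. Every pup, untreated ones included, received tamoxifen through the milk of a mother injected 1 day (P1 groups) or 4 days (P4 groups) after delivery, and was taken 72 h later. The groups named P1 and P4 were therefore harvested at P4 and P7. The P1 treated, P1 untreated and P4 untreated groups held 3 libraries each and the P4 treated group held 2 (replicates 1 and 3), each library from both ears of 1 pup, and the remaining P4 treated library was not analysed here. The Cre sits in the Sox2 locus and acts in SOX2+ cells, so treated pups also carried 1 altered Sox2 allele, and counts per gene cannot show whether exon 3 was removed.

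Values are counts that the authors normalized and deposited as rounded whole numbers, called normalized counts here. They summed to between 41225626 and 44153992 per library. Sox2 stood at 4930 to 6006 normalized counts in P1 treated and 8042 to 10170 in P1 untreated libraries, and at 7577 to 7993 and 10101 to 10485 at P4, so treated libraries were lower at both ages. Ctnnb1, which encodes β-catenin, ranged from 24107 to 25048 and from 19820 to 25308 at P1, and from 28951 to 31167 and from 25724 to 30429 at P4. Xist, which is transcribed from the inactive X chromosome, was at 3030 and 2794 in P1 untreated replicates 2 and 3, at 4180 and 3268 in both P4 treated libraries, and at 39 or less in the other 7. Sex therefore cannot be told apart from treatment at P4 or from age among treated pups. Among untreated pups it is partly tied to age, since only P1 untreated replicates 2 and 3 had high Xist. Hair cell markers (14 of 14 above 0 in every library) summed to between 27154 and 44777 normalized counts at P1 and between 54073 and 63473 at P4, and supporting cell markers to between 391519 and 612051 over the 11 libraries. Mesenchyme markers were also above 0 throughout, at 133988 to 214745. Neuron and glia markers summed to between 20690 and 36739, with at most 1 of 10 at 0 in a library.

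Of the 10 members, 8 matched promoter entries of RefSeq on GRCm38.p6, in 11 windows that were searched over the 250 bases before the annotated start. Cdkn1c and Rb1 are named only. The windows below belong to the called members (those past the limits on adjusted p and fold in at least 1 comparison), with both annotated starts of Cdkn1a, because Cdkn1a, Cdkn1b and Cdkn2d moved in the same direction with age. Each runs 5′ to 3′ on the strand of the gene, and capitals mark a GC box, an E2F motif or a p53 decamer.
Cdkn1a, upstream start, chr17:29090729-29090978, plus strand: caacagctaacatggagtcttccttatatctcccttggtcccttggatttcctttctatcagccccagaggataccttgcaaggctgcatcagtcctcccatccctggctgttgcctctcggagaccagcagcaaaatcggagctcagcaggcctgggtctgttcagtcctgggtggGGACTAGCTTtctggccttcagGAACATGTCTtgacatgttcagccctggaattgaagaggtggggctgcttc
Cdkn1a, downstream start, chr17:29093519-29093768, plus strand: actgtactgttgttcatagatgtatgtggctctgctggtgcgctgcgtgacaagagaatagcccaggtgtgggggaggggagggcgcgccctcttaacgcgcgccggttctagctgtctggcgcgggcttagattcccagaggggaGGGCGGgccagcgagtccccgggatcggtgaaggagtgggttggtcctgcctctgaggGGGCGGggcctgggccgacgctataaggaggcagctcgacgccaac
Cdkn1b, chr6:134920151-134920400, plus strand: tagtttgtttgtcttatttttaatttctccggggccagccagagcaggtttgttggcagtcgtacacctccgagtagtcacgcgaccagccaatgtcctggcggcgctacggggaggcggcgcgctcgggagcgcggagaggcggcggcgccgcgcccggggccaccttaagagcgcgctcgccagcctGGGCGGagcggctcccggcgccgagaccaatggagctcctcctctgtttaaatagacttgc
Cdkn2d, chr9:21291210-21291459, minus strand: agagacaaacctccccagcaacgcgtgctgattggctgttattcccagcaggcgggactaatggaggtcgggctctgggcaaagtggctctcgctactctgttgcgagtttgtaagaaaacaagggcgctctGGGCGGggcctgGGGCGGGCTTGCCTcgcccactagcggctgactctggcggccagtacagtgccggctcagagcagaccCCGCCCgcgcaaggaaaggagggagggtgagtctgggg
Rbl1, chr2:157204535-157204784, minus strand: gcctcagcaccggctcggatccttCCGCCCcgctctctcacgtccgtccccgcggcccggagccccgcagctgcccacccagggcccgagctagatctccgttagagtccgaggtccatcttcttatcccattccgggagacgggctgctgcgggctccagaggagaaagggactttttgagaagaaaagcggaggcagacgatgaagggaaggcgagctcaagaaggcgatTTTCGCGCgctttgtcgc

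The letters searched, on both strands, were GGGCGG for the GC box and TTTCCCGC, TTTCGCGC, TTTGCCGC or TTTGGCGC for E2F, and the p53 decamer, the 10-base unit of a p53 binding site, was searched in its usual degenerate form. The upstream window of Cdkn1a held 2 p53 decamers, whose first bases lay at -73 and -51 relative to the start, and the downstream window held none but had 2 GC boxes. Cdkn2d had 3 GC boxes, of which 1 overlapped its single p53 decamer at -102. Rbl1 carried an E2F motif at -18, Cdkn1b had 1 GC box, and Cdkn2a was the only other matched member with an E2F motif. Among all 32851 windows of this length, 7.13% held a p53 decamer, 1.86% an E2F motif and 32.7% a GC box. TCF/LEF factors are the DNA-binding partners of β-catenin. Their letters, searched as CTTTGAA along with CTTTGAT and further as CTTTGTA along with CTTTGTT, were in none of the 11 member windows and in 14.8% of all windows. All of these are matches of letters only.

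Transcript levels were first set against one another per kilobase of exon. In P1 untreated libraries, Cdkn1c was highest at 14865 ± 9460 normalized counts per kb (SD, n = 3), far above Cdkn2d at 1101 ± 123, Cdkn1a at 896 ± 110 and Cdkn1b at 608 ± 36.7. Below these came Rb1 at 407 ± 28.2 and Rbl2 at 232 ± 16.1 per kb, then Rbl1 at 62.7 ± 11.8. Cdkn2b and Cdkn2c, at 27.1 ± 32.4 and 25.9 ± 7.65 per kb, did not differ beyond their spread. Cdkn2a (chr4:89274471-89294653, minus strand), whose entry pools the transcripts of p16Ink4a and p19Arf, was listed at 0 in 9 of 11 libraries, at 1 in P1 treated replicate 1 and at 8 in P4 untreated replicate 3. In P4 untreated libraries, per kb of exon, Cdkn1c at 3950 ± 959 and Cdkn1a at 3209 ± 564 were within their spread of each other, followed by Cdkn2d at 1557 ± 104 and Cdkn1b at 962 ± 176. The order of Cdkn1a and Cdkn2d at P1 depended on the length used, since per kb of mean coding transcript Cdkn1a stood at 2092 ± 256 and Cdkn2d at 1539 ± 172 in P1 untreated libraries.

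**Figure D1:**
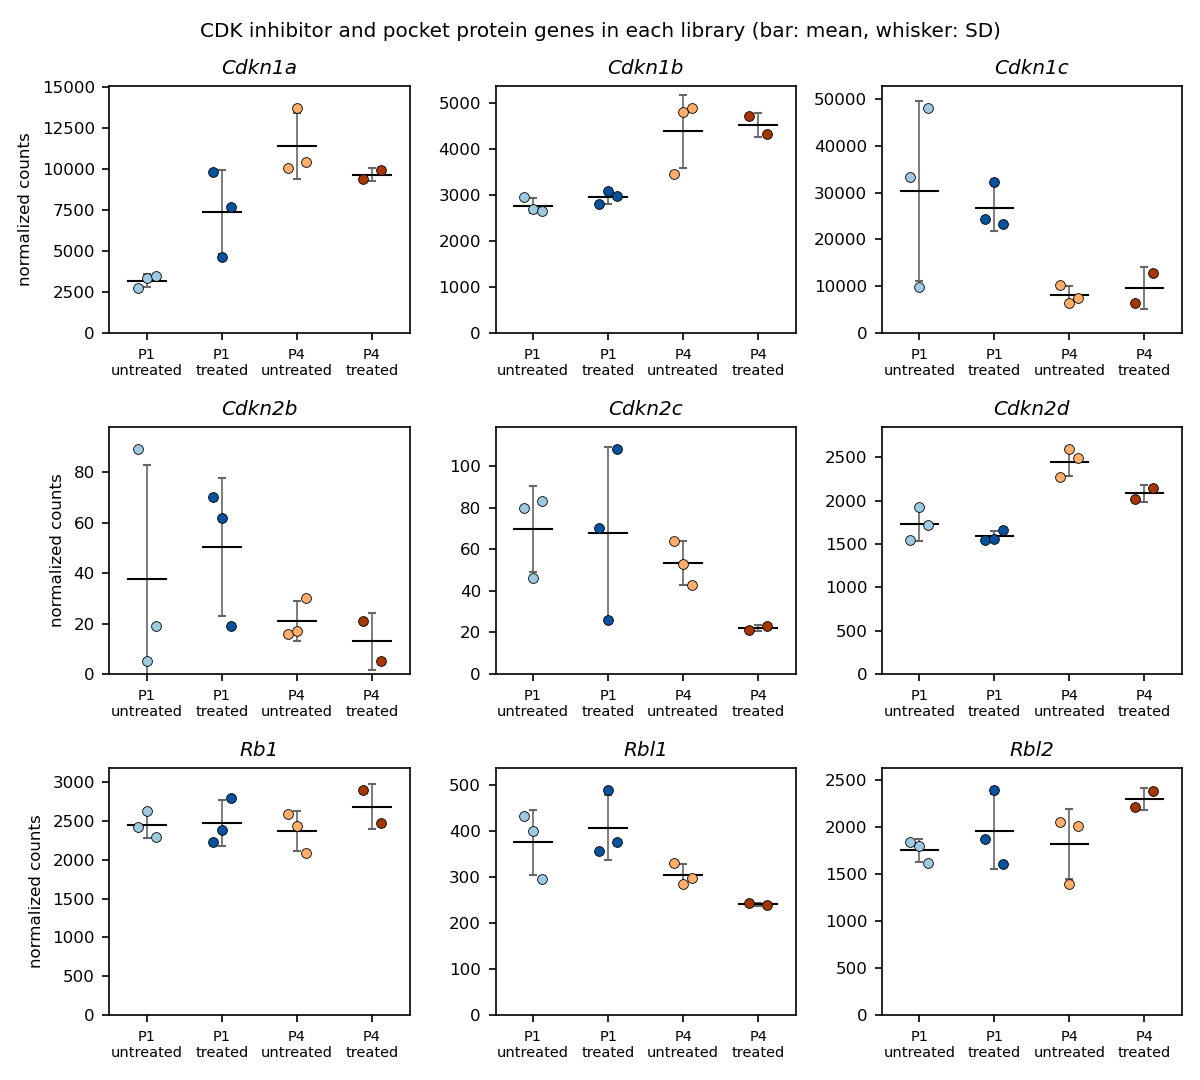
Normalized counts (vertical axes, linear, from 0) of the 9 tested members in each library, grouped along the horizontal axis by age and treatment; points are libraries, black bars group means and whiskers the SD. Cdkn1a stands at 2737 to 3451 in P1 untreated libraries and at 4665 or more in every other library, and Cdkn1c spans 9723 to 47965 within the P1 untreated group alone.

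To ask what changed with age without β-catenin stabilization, P4 untreated was compared with P1 untreated. In this comparison 4 of 9 tested members were called by limma, 3 higher and 1 lower, where 19.9% of all 18400 tested genes were called (9.38% higher and 10.5% lower). The 3 that rose were Cdkn1a, Cdkn1b and Cdkn2d, in each of which all P4 libraries lay above all P1 libraries. Such a separation upward held for 19.3% of all genes. Cdkn1c fell, with an overlap between the groups. Sex was partly tied to age here, since Xist was high only in P1 untreated replicates 2 and 3. With Xist as a covariate the calls of Cdkn1b and Cdkn1c were lost (limma adjusted p = 0.0565 and 0.0740).

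Cdkn1a (chr17:29090976-29100727, plus strand), the best known transcriptional target of p53, had normalized counts of 2737, 3362 and 3451 in P1 untreated replicates 1 to 3 and 10055, 13702 and 10445 in the P4 untreated ones. The lowest P4 library was therefore well above the highest P1 library. The fitted rise was 3.56-fold, or 1.83 on the log2 scale (SE 0.231, 95% interval 1.32 to 2.35, limma adjusted p = 0.000663). Antisense AC167363.2 shares 273 bp of exon with Cdkn1a, and without strand the reads of such a pair cannot be told apart.

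Cdkn1b (chr6:134920401-134925513, plus strand) had 2960, 2700 and 2648 normalized counts at P1 and 3456, 4802 and 4877 at P4 in untreated libraries. Replicate 1 was the lowest of the P4 group and yet above the P1 group. The rise was 1.56-fold (log2 0.64, SE 0.124, limma adjusted p = 0.00536). Cdkn2d (chr9:21288410-21291407, minus strand), which encodes p19Ink4d, went from 1544, 1931 and 1724 to 2270, 2590 and 2492 normalized counts, again without overlap, a rise of 1.42-fold (log2 0.50, SE 0.0960, limma adjusted p = 0.00519).

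Cdkn1c (chr7:143458339-143461050, minus strand) had 33243, 9723 and 47965 normalized counts in P1 untreated replicates 1 to 3, against 10211, 6396 and 7557 at P4. P1 untreated replicate 2 fell inside the P4 range, whereas the other P1 libraries were far above it. The fitted change was -1.66 on the log2 scale (SE 0.494, 95% interval -2.75 to -0.56, limma adjusted p = 0.0378), and the call was lost in 9 of 22 alternatives, whose estimates ran from -2.34 to -1.19. Antisense Gm44732 shares 625 bp with its exons.

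In the same comparison, hair cell markers summed to 27154 to 44777 normalized counts at P1 and 54073 to 63473 at P4, with 6 of 14 called higher and 2 lower. Mesenchyme markers had 1 of 10 called higher and 2 lower, with sums of 144472 to 165852 at P1 and 186737 to 205969 at P4, whereas their mean log2 level was lower at P4 (11.5 to 11.8) than at P1 (12.2 to 12.5) and their median log2 change was -0.63. Of the supporting cell markers 6 of 14 were called higher and 2 lower, with sums of 511711 to 591161 at P1 and 391519 to 503660 at P4. Their mean log2 level went the other way, at 13.08 to 13.47 at P1 and 13.52 to 13.70 at P4, with a median log2 change of 0.36. Endothelial markers summed to 6694 to 9156 and 2698 to 5868, with 0 of 7 called by limma and 2 of 7 lower at an unadjusted p under 0.05. Of all 18400 tested genes, 3511 were lower at that limit. The part of these shifts in the changes of the inhibitors was not tested, and in bulk tissue fewer cells of a type cannot be told apart from less RNA per cell.

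The pocket proteins did not pass the test with age in untreated pups. Rb1 (chr14:73183673-73325822, minus strand) ranged from 2293 to 2629 normalized counts at P1 and from 2093 to 2588 at P4, a log2 difference of -0.05 with a 95% interval of -0.30 to 0.21. Rbl2 (chr8:91070057-91123844, plus strand) differed by 0.04, with an interval of -0.34 to 0.41. Exons of Rb1 overlap those of Rcbtb2 and Lpar6, and exons of Rbl2 overlap those of Aktip and Gm45464, all on the opposite strand. Rbl1 (chr2:157145893-157204534, minus strand) had 432, 399 and 296 normalized counts at P1 and 330, 284 and 297 at P4, a log2 difference of -0.29 (interval -0.69 to 0.11, limma adjusted p = 0.278).

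The remaining INK4 genes were sparse. Cdkn2c (chr4:109660876-109667189, minus strand), which encodes p18Ink4c, had 80, 46 and 83 normalized counts in P1 untreated and 64, 53 and 43 in P4 untreated libraries, and the groups overlapped. Cdkn2b (chr4:89306299-89311039, minus strand), which encodes p15Ink4b, had 89, 5 and 19 against 16, 17 and 30. Its log2 interval of -2.10 to 1.98 covers a change of several fold in either direction, so no change of that size was detectable.

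**Figure D2:**
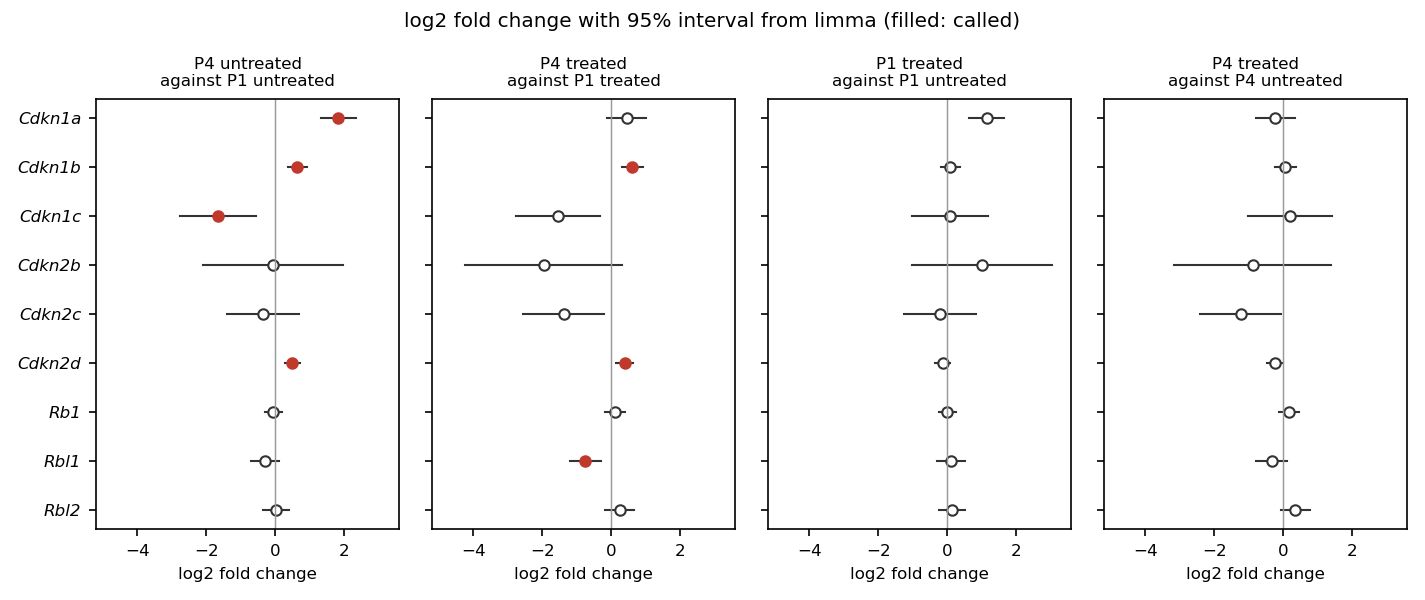
Fitted log2 fold changes (horizontal axes) of the 9 tested members in 4 comparisons, 1 panel each, with 95% intervals from limma as lines and called members filled. Cdkn1b and Cdkn2d are filled in both comparisons of age, Cdkn1a and Cdkn1c are filled in untreated pups alone, Rbl1 in treated pups alone, and no member is filled in either comparison of treatment.

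Next, P4 treated was compared with P1 treated. Here 3 of 9 members were called by limma, 2 higher and 1 lower, against 11.1% of all tested genes (5.42% higher and 5.63% lower). Cdkn1b and Cdkn2d were again higher at P4 and Rbl1 was lower. In this comparison age cannot be told apart from sex, since Xist was at 26 or less in the P1 treated libraries and at 3268 or more in the P4 treated ones. Groups of 2 and 3 libraries often do not overlap, as held for 33.5% of all genes between P4 treated and P4 untreated libraries. The share for the present comparison is not given here.

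Cdkn1b had 2796, 3089 and 2969 normalized counts in P1 treated replicates 1 to 3 and 4710 and 4333 in P4 treated replicates 1 and 3, with no overlap. Its rise was 1.53-fold (log2 0.62, SE 0.138, limma adjusted p = 0.0206), beside 1.56-fold in untreated pups. Cdkn2d had 1541, 1559 and 1660 normalized counts against 2017 and 2149, a rise of 1.31-fold (log2 0.39, SE 0.107, limma adjusted p = 0.0416), beside 1.42-fold in untreated pups. The Cdkn2d call was lost in 11 of 22 alternatives. With Xist as a covariate the Cdkn2d estimate was 0.15 (limma adjusted p = 0.719, range 0.0345 to 0.719). That fit rests mainly on the P1 untreated libraries, the only group in which Xist varied widely (16, 3030 and 2794 normalized counts).

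Rbl1, the pocket protein gene that is itself a classical E2F target, had 357, 488 and 377 normalized counts in P1 treated and 243 and 238 in P4 treated libraries. The highest P4 library was thus below the lowest P1 library. The gene fell by 0.74 on the log2 scale (SE 0.201, limma adjusted p = 0.0398). The call was lost in 12 of 22 alternatives, with estimates between -0.83 and -0.38, and with replicates blocked by number the change was -0.70 (adjusted p = 0.0825).

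Cdkn1a did not pass the test among treated pups, with 9813, 4665 and 7676 normalized counts at P1 and 9401 and 9934 at P4. P1 treated replicate 1 lay between the P4 libraries. The log2 difference was 0.45, with an interval of -0.12 to 1.03 (limma adjusted p = 0.288). Cdkn1c had 24424, 32251 and 23238 against 6491 and 12791 normalized counts. Its log2 difference of -1.53 (interval -2.76 to -0.31, limma adjusted p = 0.103) missed the threshold. It passed with only the compared groups fitted (limma adjusted p = 0.0402) and without P1 untreated replicate 2 (limma adjusted p = 0.0154, range 0.0154 to 0.737 over 22 alternatives). Cdkn2c, at 70, 26 and 108 against 21 and 23 normalized counts, likewise missed the threshold, with a difference of -1.37 (interval -2.54 to -0.19, limma adjusted p = 0.126). Without P1 treated replicate 2, Cdkn2c differed by -1.94 and passed (limma adjusted p = 0.0181, range 0.0181 to 0.613 over 22 alternatives).

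The Cip/Kip genes were then expressed as the share of each in their summed normalized counts per kb of exon. Cdkn1c made up 92.0%, 75.6% and 93.8% of this sum in P1 untreated replicates 1 to 3 and 58.3%, 39.0% and 48.0% in the P4 untreated ones. In treated libraries its share was 78.0%, 88.8% and 80.2% at P1 and 46.4% and 62.6% at P4. All 6 P1 libraries had a higher share of Cdkn1c than any of the 5 P4 libraries. The share of Cdkn1a averaged 7.74% ± 6.29 (SD, n = 3) in P1 untreated, 13.5% ± 5.50 (n = 3) in P1 treated, 39.6% ± 7.62 (n = 3) in P4 untreated and 33.2% ± 7.53 (n = 2) in P4 treated libraries. The share of Cdkn1b was smaller, at 5.13% ± 3.76, 4.13% ± 0.407, 11.9% ± 2.72 and 12.3% ± 3.94 in the same order. The summed level was 6308 per kb in P1 untreated replicate 2 and 17724 and 25077 in the other libraries of that group, against 7717 to 8597 in P4 untreated libraries. When the mean length of the coding transcripts replaced the exon length, Cdkn1c averaged 84.4%, 77.7%, 41.2% and 47.5% and Cdkn1a 10.8%, 18.5%, 48.9% and 42.0%, so which of the pair led in P4 untreated libraries depended on the length used, while the gap in the share of Cdkn1c between P1 and P4 libraries remained.

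**Figure D3:**
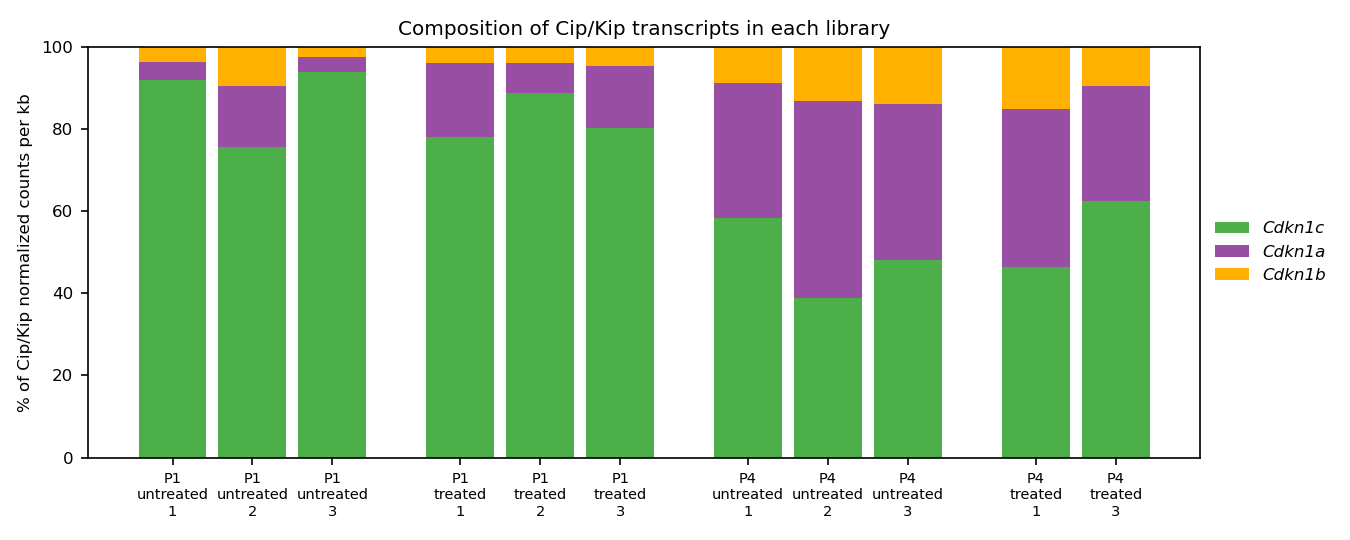
Stacked bars, 1 per library, of the share (vertical axis, percent) of Cdkn1c, Cdkn1a and Cdkn1b in their summed normalized counts per kb of exon; the horizontal axis gives age, treatment and replicate. Cdkn1c takes 75.6% or more in each P1 library and 62.6% or less in each P4 library.

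The effect of β-catenin stabilization was tested at each age. After tamoxifen at P1, no member was called by limma, where 0.353% of tested genes were. At an unadjusted p under 0.05, 1 of 9 members passed, compared with 12.2% of all genes. That member was Cdkn1a, with 9813, 4665 and 7676 normalized counts in P1 treated and 2737, 3362 and 3451 in P1 untreated libraries. Every treated library exceeded every untreated one, a separation upward that 6.95% of genes showed. P1 treated replicate 2 was the closest to the untreated group. The estimate was 2.23-fold (log2 1.16, SE 0.231, interval 0.64 to 1.67, limma adjusted p = 0.0829), and without P1 treated replicate 2 it was 1.45 on the log2 scale (limma adjusted p = 0.00738, with a range of 0.00738 to 0.361 over 22 alternatives). The log2 estimate ran from 0.92 to 1.45 over these 22 alternatives, which include Xist as a covariate. At P1 only untreated replicates 2 and 3 had high Xist, so that fit rests mainly on the P1 untreated libraries. The part of sex in the Cdkn1a difference was not tested further.

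Marker levels of other cell types were compared in the same libraries. Immune cell markers summed to 1663 to 3358 normalized counts in P1 treated and 3802 to 4742 in P1 untreated libraries, with 0 of 10 called and 8 of 10 lower at an unadjusted p under 0.05. Of all 18400 tested genes, 1287 were lower at that limit. Endothelial markers summed to 2235 to 4182 and 6694 to 9156, with 0 of 7 called and 2 of 7 lower at that limit in limma. Their mean log2 levels overlapped (6.68 to 7.81 and 6.99 to 8.25), and their median log2 difference was -0.16. Of the mesenchyme markers, 1 of 10 was called higher and 0 lower, 5 of 10 were lower at that limit, and the median log2 difference was -0.98. Their sums overlapped, at 133988 to 209972 in treated and 144472 to 165852 in untreated libraries. So did their mean log2 levels, at 10.77 to 12.47 and 12.22 to 12.47. Of the supporting cell markers, 4 of 14 were called higher and 1 lower, the latter being Sox2. Their part in the difference of Cdkn1a was not tested.

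For the other members at P1 the log2 differences between treated and untreated lay between -0.20 for Cdkn2c and 1.02 for Cdkn2b. Intervals were narrow for Rb1 (-0.24 to 0.27), Cdkn2d (-0.33 to 0.09) and Cdkn1b (-0.18 to 0.37), and wide for Cdkn1c (-1.02 to 1.18) and Cdkn2b (-1.02 to 3.06). Rbl1 differed by 0.12 (interval -0.28 to 0.52) and Rbl2 by 0.14 (-0.24 to 0.52).

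After tamoxifen at P4, no member was called by limma either, with 0.0543% of tested genes called. At an unadjusted p under 0.05, 1 of 9 members passed against 11.6% of all genes, namely Cdkn2c. It had 21 and 23 normalized counts in P4 treated and 64, 53 and 43 in P4 untreated libraries, a log2 difference of -1.22 (interval -2.40 to -0.05, limma adjusted p = 0.416). Cdkn1a had 9401 and 9934 against 10055, 13702 and 10445 normalized counts, so its estimate lay on the other side of 0 from that at P1, at -0.22 with an interval of -0.80 to 0.35. For 5 of the 9 members the treated group lay wholly outside the untreated one, Cdkn1a, Cdkn2c, Cdkn2d and Rbl1 being lower and Rbl2 higher. With 2 libraries against 3, 33.5% of all genes were separated in this way, 16.9% lower and 16.6% higher.

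A treatment effect that differs with age was tested as an interaction. No gene of 18400 was called by limma in this test, and 5.8% passed an unadjusted p under 0.05. Cdkn1a alone of the members passed that limit, with a difference between the effects at P4 and P1 of -1.38 on the log2 scale (SE 0.346, interval -2.15 to -0.61, limma adjusted p = 0.768). The 4 pairwise comparisons share groups, so the higher Cdkn1a in P1 treated libraries enters both the treatment effect at P1 and the smaller age difference in treated pups.

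Genes that act with the inhibitors and pocket proteins were described as 6 lists. Their counts with age stand beside 9.38% of all tested genes called higher and 10.5% lower in untreated pups, and 5.42% higher and 5.63% lower in treated pups. Genes are named by smallest adjusted p, up to 3 per list and comparison. A gene named for untreated or treated pups alone may therefore have moved in both. Among E2F targets of DNA replication, 6 of 16 were called lower and 0 higher with age in untreated pups, with a median log2 change of -0.57 beside -0.02 over all tested genes. Gins2, a part of the replicative helicase, fell by 0.99, from 847 ± 44.0 to 426 ± 51.9 normalized counts (SD, n = 3 each). Pcna, the sliding clamp of DNA polymerase, fell by 0.78, from 1291 ± 329 to 735 ± 65.6, and Mcm4, another helicase subunit, fell by 0.62. In treated pups 6 of 16 were also lower and 0 higher with age, with a median of -0.72, among them the thymidine kinase gene Tk1 at -1.90, the licensing factor gene Cdt1 at -1.0 and Gins2 at -0.94.

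Of the cyclins and CDKs, 4 of 15 were lower and 0 higher with age in untreated pups (median -0.30), and 5 of 15 were lower and 0 higher in treated pups (median -0.36). Ccnb1, the mitotic cyclin B1, fell by 2.30 in untreated pups, from 191 ± 71.5 to 36.7 ± 9.07 normalized counts, and fell by 3.48 in treated pups, from 453 ± 306 (n = 3) to 33.5 ± 10.6 (n = 2). Cdk2, a main target of Cip/Kip proteins, fell by 0.58 in untreated pups, and Cdk7, the CDK-activating kinase, fell by 0.61 in untreated and 0.35 in treated pups. Cdk1, the mitotic kinase, fell by 3.25 in treated pups.

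Among E2F and DP factors, 1 of 10 was called lower and 0 higher in untreated pups, the partner gene Tfdp1 at -0.33, which is close to the share of all genes called lower. In treated pups 2 of 10 were lower and 0 higher, E2f8 at -4.22 and E2f1 at -1.34, where E2f8 had 47 to 104 normalized counts at P1 and 1 to 5 at P4. The MuvB core joins Rbl1 or Rbl2 in the DREAM complex, which silences cell cycle genes in quiescence, and joins Mybl2 and Foxm1 in complexes that activate such genes in dividing cells. Of the list of MuvB core genes with Mybl2 and Foxm1, 1 of 7 was lower in untreated pups (Lin9, a core gene, at -0.47) and 0 were higher. In treated pups limma called 0 in either direction, and 1 of 7 passed an unadjusted p under 0.05, where 27.5% of all genes did.

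The regulators of the inhibitors moved both ways, with 4 of 17 called higher and 5 lower with age in untreated pups and 2 higher and 3 lower in treated pups. Skp2, which marks p27 for degradation, fell by 1.23 in untreated pups, from 437 ± 46.1 to 185 ± 22.5 normalized counts (limma adjusted p = 0.00118). Its partner in the same ubiquitin ligase, Skp1a, rose by 1.32 on the log2 scale, from 91289 ± 11569 to 227713 ± 16276. In treated pups Skp2 fell by 0.82 and Skp1a rose by 0.83, and both were called there too. Foxo1, a factor known to activate Cdkn1b, rose by 1.75 in untreated and 1.83 in treated pups, from 3714 ± 645 to 12361 ± 1125 and from 3793 ± 1049 to 13142 ± 941. Mycn, known to oppose cell cycle exit, fell by 1.14 in treated pups, and Cks1b, a cofactor of Skp2, fell by 0.84. Both were also lower with age in untreated pups. There Mycn averaged 2105 normalized counts at P1 and 1282 at P4, and Cks1b averaged 1739 and 983.

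Of p53 response genes other than Cdkn1a, 1 of 15 was called higher and 4 lower with age in untreated pups, with a median of -0.17, and 0 were higher and 2 lower in treated pups. Trp53 itself fell by 0.71, from 3742 ± 155 to 2303 ± 408 normalized counts in untreated pups, and the antiproliferative gene Btg2 fell by 1.37. In treated pups Trp53 and Btg2 were the 2 called lower, at -0.56 and -1.39. Zmat3, the 1 called higher in untreated pups, rose by 0.86. In both comparisons of treatment and in the interaction, limma called 0 genes of each of the 6 lists. At an unadjusted p under 0.05 the E2F targets had 4 of 16 higher and 0 lower after treatment at P1, with a list median of 0.25, and 0 in either direction at P4, with a median of 0.12. At the same limit at P1, the regulators had 3 of 17 higher and 0 lower, the cyclins and CDKs 1 of 15 higher and 2 lower, and the p53 response genes 0 of 15 higher and 3 lower. Of all 18400 tested genes, 954 were higher and 1287 lower at that limit at P1, and 1151 were higher and 990 lower at P4.

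**Figure D4:**
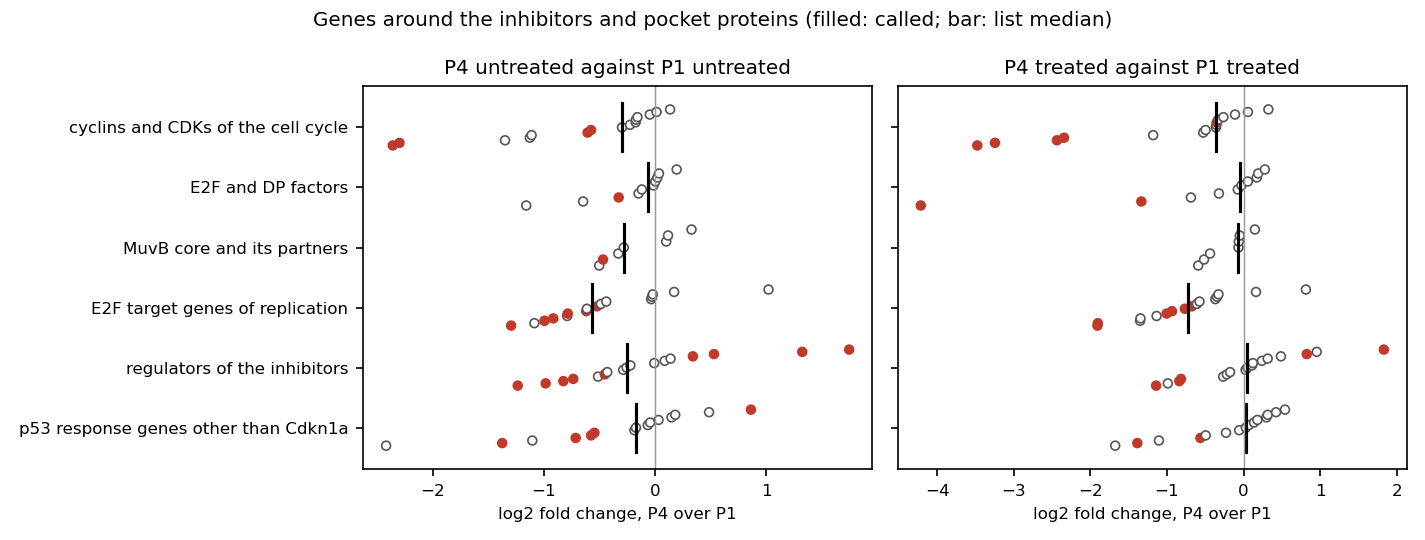
Log2 fold change from P1 to P4 (horizontal axes) of each tested gene in 6 lists (vertical axis), in untreated pups on the left and treated pups on the right; filled points are called by limma and vertical bars are list medians. The E2F targets of replication have their median at -0.57 and -0.72, with called points on the lower side, and the regulators have called points on both sides.

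The spread within groups differed widely between members. The SD of log2 values within groups was 0.11 for Cdkn2d, at percentile 15.7 of all tested genes, and 0.15, 0.16 and 0.21 for Rb1, Cdkn1b and Rbl1, against a median of 0.23 over all tested genes. It was 0.34 for Cdkn1a, 0.62 for Cdkn2c, 0.73 for Cdkn1c and 1.30 for Cdkn2b, the last of which has few counts. Differences in Cdkn1c and Cdkn2b were thus measured with much less precision than those in Cdkn2d.

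Finally, the genes nearest in pattern to each called member over the 11 libraries were found by the root mean square (RMS) difference of centred log2 values, a description that also carries the differences between ages and single libraries. Nearest to Cdkn1a were Gm4735 (RMS 0.27), Tmprss2 (0.28) and 1700045H11Rik (0.28), where the median gene stood at 0.83. Nearest to Cdkn1b were Id4 (0.12), Dnmt3a (0.12) and Lzic (0.13), with a median of 0.46. Cdkn2d lay closest to Mat2a (0.052), Mapk8ip1 (0.072) and Dtx3 (0.082), with a median of 0.41. Cdkn1c was nearest to Cnmd (0.35), Smoc2 (0.38) and Abhd14b (0.39), with a median of 1.04, and Rbl1 to Zfp334 (0.10), Mdrl (0.13) and Ephb1 (0.13), with a median of 0.43.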

How the data were processed

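RNA was sequenced from cochlear sensory epithelium, after a step to separate it from mesenchyme and neurons, as unstranded single-end libraries. Markers of both were still present. STAR 2.5.2b and mm10 are the aligner and build of the authors, who normalized with DESeq2. The deposited values are a score: counts normalized and rounded, so they carry no raw depth. The form of the normalization factors is not known here. For quantification the authors ran Sailfish and summed transcripts to genes with tximport, and they used featureCounts for quality control; the table does not name its input. Raw counts were not recovered, so no count test was run. Of 27755 entries, 1 repeated ID was left out. Genes with a mean of at least 10 (18400) were tested with limma 3.58.1 in R 4.3.3, on log2(normalized count + 1), with 4 group means, a trended prior and Benjamini-Hochberg adjustment, so fold changes of low genes are understated. Called means an adjusted p under 0.05 and a fold over 1.25. The steps were tested on simulated data. Each library is 1 pup. Coordinates and exon lengths are from GENCODE on GRCm38 (mm10). The members and lists were chosen with earlier results of these data known. Named genes are the 10 members, up to 3 called genes of each list with the smallest adjusted p per comparison, the 3 genes nearest to each called member, and Ctnnb1, Sox2 and Xist. The deviations from group means of same-numbered untreated libraries correlated across ages by 0.135, 0.136 and 0.115 (across genes). Libraries of different number were not compared and no label states a shared litter, so these values do not establish a pairing. In the other comparisons the correlation was -0.061 to 0.026. Alternatives changed the pseudocount, filter, trend, samples fitted, scaling, threshold and pairing, added Xist as a covariate, and left out each library. The Xist covariate was fitted mainly from the P1 untreated libraries, since Xist varied little within the other groups. The use of transcript length for the Cip/Kip shares and the order of levels was chosen after seeing the data.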

Additional observations from a re-analysis of the deposited data

How the results depend on the processing

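Of the called members, Cdkn1a and Cdkn2d in untreated pups kept their calls with age in all 22 alternatives, with log2 estimates of 1.69 to 2.05 and 0.42 to 0.63. Cdkn1b kept it in 21 of 22, with 0.57 and a limma adjusted p of 0.0565 (range 0.000658 to 0.0565) when Xist was a covariate, which left 2 members called in that comparison. The Cdkn1c call (adjusted p 0.00137 to 0.124) was lost without a minimum level, without the trend, with only the compared groups fitted, with Xist, and without P1 untreated replicate 1 or 3 or any 1 P4 untreated library. In treated pups the count of 3 called members became 1 without a minimum level and 0 with Xist, and ran from 0 to 3 when 1 library was left out, being 0 without either P4 treated library, which leaves that group with 1 library assumed to vary like the others, and 1 without P1 treated replicate 1 or 3 or P4 untreated replicate 3. At P1, treated against untreated, the count of 0 became 1 at an adjusted p under 0.1, and ran from 0 to 1 when 1 library was left out, the 1 being Cdkn1a without P1 treated replicate 2. The cause was not tested.

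With the replicate number as a block, untreated pups gave 4 called members across age, as without it. Treated pups gave 2 in place of 3 across age, with Rbl1 at -0.70. The block turned small uncalled estimates: Cdkn1c to -0.023 at P4, treated against untreated, and in the interaction Cdkn1b to 0.00078 and Cdkn1c to -0.10. With Xist as a covariate, uncalled estimates also turned, for treated against untreated at P1 to -0.37 (Cdkn1c), -0.84 (Cdkn2b), 0.028 (Cdkn2d) and -0.11 (Rbl1), at P4 to 1.79 (Cdkn2b), for age to -0.040 (Rbl2, untreated) and 1.02 (Cdkn2b, treated), and in the interaction to 0.19 (Cdkn1b), 2.63 (Cdkn2b) and 0.11 (Rbl1). Quantile normalization put Rb1 at -0.0042 at P1. Leaving out 1 library turned uncalled estimates within these ranges: in the interaction -0.19 to 0.057 (Cdkn1b) and -0.36 to 0.80 (Cdkn1c); at P4, treated against untreated, -0.099 to 0.15 (Cdkn1b), -0.28 to 0.69 (Cdkn1c) and -1.82 to 0.056 (Cdkn2b); at P1 -0.60 to 0.55 (Cdkn1c), -0.64 to 0.36 (Cdkn2c), -0.080 to 0.083 (Rb1), -0.041 to 0.23 (Rbl1) and -0.013 to 0.27 (Rbl2); and for age in untreated pups -1.0 to 0.95 (Cdkn2b), -0.11 to 0.040 (Rb1) and -0.061 to 0.22 (Rbl2). Transcript length moved the share of Cdkn1a to 42.0% in P4 treated and 48.9% in P4 untreated libraries. With age in treated pups, the calls of Cdkn1b, Cdkn2d and Rbl1 were lost in 4, 11 and 12 of 22 alternatives, and calls were gained for Cdkn1c with only the compared groups fitted and without P1 untreated replicate 2, and for Cdkn2c without P1 treated replicate 2. The normalized values carry no raw depth per library, and Cdkn2b and Cdkn2c, at 108 normalized counts or less, limit what could be detected.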
